A study of Mus musculus with 11 samples.

Results

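The mitochondrial carrier family, Slc25 with the uncoupling proteins, was followed across 4 compartments of the fetal mouse kidney and ureter. Its members were taken by name, as every gene whose symbol is Slc25a with a number, plus Ucp1, Ucp2 and Ucp3. Of these, 46 were measured by a probe set of an Affymetrix whole-genome mouse array that the annotation assigns to a single gene, among 18193 such genes in all. After a filter on dim probe sets, 39 members remained among 13614 genes tested. Ucp1, Slc25a2, Slc25a16, Slc25a31, Slc25a41, Slc25a48 and Slc25a54 did not pass that filter. Ucp2, Slc25a21, Slc25a43 and Slc25a52 had no single-gene probe set in the annotation used and were not analysed here.

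All tissue was wild-type, from time-mated CD-1 mice, an outbred stock, at E15.5 (Theiler stage 23). Regions were cut by laser capture from frozen sections. Cortical collecting duct (CCD in the plots) was represented by 2 arrays, and early proximal tubule (EPT), ureteral smooth muscle (USM) and urothelium (URO), the lining of the ureter, by 3 arrays each. Each array held RNA pooled from about 50 sections of 5 kidneys and amplified in 2 rounds. The sex of the fetuses is given as unknown, and nothing says whether pools shared animals, so p-values speak only of variation among these pools, part of which may be technical. In such bulk samples, fewer cells of a type and less RNA per cell cannot be told apart.

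Mitochondrial carriers are small proteins of the inner membrane that exchange nucleotides, phosphate, organic acids, amino acids, cofactors and metals between matrix and cytosol. The ADP/ATP carriers export the ATP made by oxidative phosphorylation, the aspartate/glutamate and oxoglutarate carriers move reducing equivalents in the malate-aspartate shuttle, and the uncoupling proteins can let protons leak back. The mature proximal tubule is dense in mitochondria and relies on fatty acid oxidation, which makes the family of interest in its embryonic precursor. A carrier transcript shows how much message is present, not how many mitochondria a cell holds.

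Values are log2(signal + 55), which shrinks the differences of dim genes, and differences are on that log2 scale with standard errors (SE) from a limma fit over all 11 arrays. A gene was called when its Benjamini-Hochberg adjusted p over all 13614 genes was under 0.05 and its difference was at least 1, a doubling. Compartments were compared with the average of the 3 others, and in 6 pairs. These comparisons share arrays, so they are not independent of each other. Levels are compared only between arrays for a given probe set, never between genes.

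The labelled compartments carried their defining genes. Of the listed markers measured, 5 of 8 were called higher in collecting duct, 8 of 8 in proximal tubule, 7 of 8 in smooth muscle and 5 of 7 in urothelium. Upk1a, a urothelial plaque gene, was below the array median on every urothelium array. The urothelium arrays also carried smooth muscle markers, with a summed signal of 12958 to 63233 against 254802 to 318258 in the muscle arrays. By a date-like part of the labels, of unstated meaning, the arrays form 4 label batches, none of which has urothelium together with collecting duct or proximal tubule. Label batch 3 holds replicate 2 of collecting duct with replicates 2 and 3 of proximal tubule. Their actin 3′ control signals were 7167 to 10236, against 24831 to 75054 on the other 8 arrays. The ratio of 3′ to 5′ control signal of GAPDH was 55.3 and 29.7 on urothelium replicates 2 and 3, and 6.79 to 25.9 elsewhere. For actin that ratio was 5.43 and 5.15 on these 2 arrays, within the 5.07 to 13.5 of the others. The part of these control values in the carrier differences was not tested.

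Across the family, few carriers were called between compartments. In proximal tubule, 2 of 39 members were called higher, Slc25a34 and Slc25a30, where 9.53% of all genes were, and 1 was called lower, Slc25a24, where 6.41% of all genes were. No member was called in collecting duct (1.42% of all genes higher and 0.624% lower), in smooth muscle (6.05% and 9.12%) or in urothelium (1.65% and 0.713%). Over the 6 pairs, limma called 5 of 39 members in at least 1 of them, against 27.2% of all genes. None of these calls involved collecting duct, where the pair with proximal tubule had 2.19% of all genes called higher and 3.65% lower in duct, that with muscle 4.91% and 3.36%, and that with urothelium 0.0955% and 0.162%. The members' share of calls was below that of all genes in each of these counts. The tubule shares rest on only 2 and 1 genes, too few to set the family apart. In collecting duct and urothelium the background itself was so low that 0 of 39 says little.

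At an unadjusted p under 0.05 the counts were 7 higher and 1 lower in proximal tubule (17.9% and 2.56% of members, against 16.6% and 13.1% of all genes). They were 0 higher and 5 lower in smooth muscle (12.8% of members lower, against 10.9% of all genes higher and 16.1% lower). Urothelium had 2 higher and 1 lower (5.13% and 2.56%, against 8.81% and 7.21%), and collecting duct 0 each way (against 6.25% and 7.18%). The spread between arrays of a compartment was like that of other genes, with a median within-compartment SD of 0.59 for the members and 0.58 for all genes. The distance from a member's lowest to its highest compartment mean had a median of 0.95, against 1.14 for all genes. It ran from 0.33 for the ADP/ATP carrier Slc25a4 to 2.49 for the ATP-Mg/phosphate carrier Slc25a24.

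The directions of the members' differences, called or not, were uneven. In smooth muscle 35 of 39 members were below 0, with a median of -0.38, where all genes had a median of -0.07 and 46.3% of them were above 0. In proximal tubule 28 of 39 members were above 0, with a median of 0.33, where the median of all genes was 0.05 and 52.8% were above 0. Without the 3 called carriers, 26 of 36 were above 0 in tubule (median 0.31). The muscle median lay between -0.43 and -0.27, and the tubule median between 0.18 and 0.45, over 23 alternative settings, each array left out in turn included. Inside label batches, on arrays that also enter the comparisons above, most members had the same direction in muscle. The muscle array of batch 1 had 27 of 39 members below its 2 urothelium arrays, and that of batch 2 had 25 below its urothelium array. That of batch 4 had 30 below its collecting duct and tubule arrays. Tubule had 26 of 39 above the duct array in batch 3 and 23 above the duct and muscle arrays in batch 4. Median signals were 309 on the muscle array of batch 4 against 401 in duct and 374 in tubule. They were 298 in muscle against 302 and 275 in urothelium in batch 1, and 257 against 250 in batch 2. Their part in the counts inside batches was not tested. No share over all genes was taken for such counts, here or below. No more than 5 of the muscle differences from the rest reached an unadjusted p under 0.05, and none was called.

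The other compartments had no stable direction. Collecting duct had 23 of 39 members above 0 (median 0.18, where all genes had -0.03 and 47.7% above 0), and its median ran from -0.02, without duct replicate 1, to 0.27 over the alternatives. Inside batch 3 the duct array had 13 members above and 26 below its tubule arrays, and inside batch 4 it had 24 above and 14 below its tubule and muscle arrays. Urothelium had 14 of 39 above 0 (median -0.10, where all genes had 0.01 and 50.9% above 0), with medians from -0.15 to 0.11. With label batch as a fixed block it turned to 23 of 39 above 0, and against the muscle arrays alone, inside batches 1 and 2, 27 and 25 members were above.

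**Figure D1:**
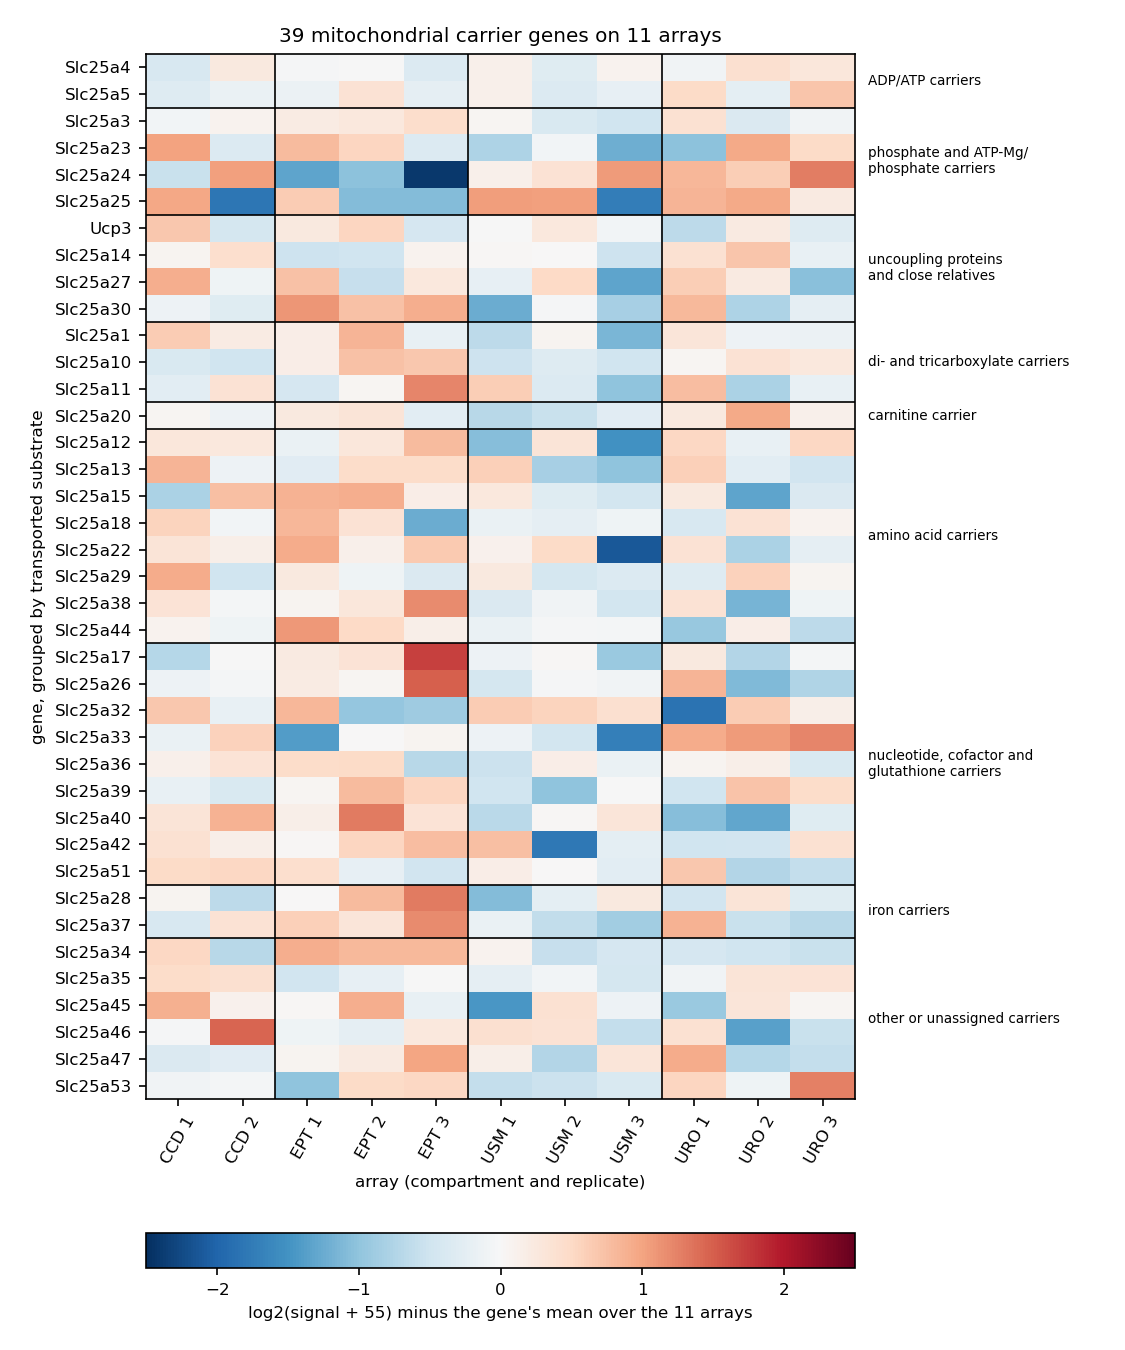
Each row is 1 of 39 carrier genes, each column 1 array, and colour gives log2(signal + 55) minus the gene's mean over the 11 arrays, red for above and blue for below. Slc25a24 is blue on the 3 EPT arrays, and in many rows arrays of the same compartment differ (median SD 0.59).

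The 3 carriers called against the mean of the other compartments are shown first by the sequence upstream of their start, so that it can be read beside their values. They come from the RefSeq table of mouse promoters (build GRCm38.p6), with CpG dinucleotides in capitals. The windows are chr3:109122899-109123148 on the plus strand for Slc25a24, chr14:75787038-75787287 on the minus strand for Slc25a30 and chr4:141623892-141624084 on the minus strand for Slc25a34. The last is cut to the 193 bases outside the annotated gene.
Slc25a24: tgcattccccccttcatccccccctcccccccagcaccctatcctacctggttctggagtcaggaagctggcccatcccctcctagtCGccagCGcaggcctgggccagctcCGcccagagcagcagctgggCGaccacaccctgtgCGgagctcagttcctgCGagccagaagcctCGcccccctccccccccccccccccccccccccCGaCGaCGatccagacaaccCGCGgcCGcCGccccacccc
Slc25a30: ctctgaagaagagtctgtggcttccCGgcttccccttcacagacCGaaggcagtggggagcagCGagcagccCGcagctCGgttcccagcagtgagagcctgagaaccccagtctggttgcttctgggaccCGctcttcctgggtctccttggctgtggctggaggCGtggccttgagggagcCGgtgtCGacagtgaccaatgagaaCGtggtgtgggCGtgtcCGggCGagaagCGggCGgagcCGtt
Slc25a34: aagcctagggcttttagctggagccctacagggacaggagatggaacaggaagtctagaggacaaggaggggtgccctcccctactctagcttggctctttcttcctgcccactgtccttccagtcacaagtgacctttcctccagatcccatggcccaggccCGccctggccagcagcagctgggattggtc
Slc25a24 had 14 CpG and 72.8% G and C, Slc25a30 had 16 CpG and 64.4%, and the shorter Slc25a34 stretch had 1 CpG and 59.1%. Over all 32851 promoters the 250 bases before the start had a median of 6 CpG and 52.4%, and over 45 promoters of the 36 members that matched by symbol a median of 12 CpG and 58.0%. Slc25a34, also with 1 CpG in its full 250 bases, thus lies on the CpG-poor side and the other 2 on the CpG-rich side.

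The 250 bases were searched on both strands for 3 motifs, none of which contains another, of factors of kidney and energy metabolism. CAAAGTCCA, a site of the proximal tubule factor HNF4, was in 0.384% of all promoters. TCAAGGTCA, of the estrogen-related receptors, was in 0.387%, and GCGCATGCG, of the nuclear respiratory factor NRF1, in 1.45%. Each was in 0 of the 45 member promoters, which says only that these exact letters are absent from these windows.

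Slc25a24, which exchanges ATP-Mg for phosphate under the control of calcium, was the carrier with the largest compartment difference. Its level was 9.15, 9.45 and 8.05 on the 3 proximal tubule arrays. It was 9.92 and 11.49 in collecting duct, 10.60, 10.84 and 11.53 in smooth muscle, and 11.30, 11.08 and 11.75 in urothelium. Every tubule array lay below every other array, as for 4% of all genes, and collecting duct replicate 1 came closest. The tubule mean differed from the rest by -2.14 ± 0.42 (SE, n = 3 against 8), with a 95% interval from -3.05 to -1.24 (limma, adjusted p = 0.00351). It fell by 2.11 ± 0.50 against smooth muscle (adjusted p = 0.00919; 8.06% of all genes were called lower there) and by 2.49 ± 0.50 against urothelium (limma, adjusted p = 0.00591; background 5.02%).

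Against collecting duct alone Slc25a24 was not called (1.82 ± 0.56 higher in duct, n = 2 against 3, limma adjusted p = 0.0833). Slc25a24 had a single kept probe set, so alternatives in probe set choice refitted the same values. Its call in tubule against the rest was kept in 22 of 24 alternative settings. It was lost with label batch as a fixed block (-2.21, limma adjusted p = 0.138), where 2.98% of all genes were called in proximal tubule against 15.9% without the block, and without the 3 arrays of label batch 3 (-1.61, adjusted p = 0.206), which left 1 tubule array. Inside batch 3 the 2 tubule arrays were 2.74 below the collecting duct array, and inside batch 4 the tubule array was 1.23 below the mean of the other 2. The gene's other probe set did not pass the filter, at 5.89 to 7.75.

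The relatives of Slc25a24 did not share its pattern of calls. Slc25a23 and Slc25a25, the other measured ATP-Mg/phosphate carriers, differed in tubule by 0.41 ± 0.47 and -0.63 ± 0.68 (limma adjusted p = 0.62 and 0.586). Slc25a25 varied widely within compartments, from 6.99 to 9.75 in collecting duct and from 7.05 to 9.84 in smooth muscle. Slc25a41, the remaining relative, stayed dim on all 11 arrays (5.99 to 7.65) and did not pass the filter. Markers of nephron progenitors and interstitium had summed signals of 6840 to 16130 in tubule, 9952 to 24966 in duct, 74105 to 99175 in muscle and 5973 to 29833 in urothelium. Of the 5 tested, Pdgfra and Meis1 were called higher in muscle (3.17 ± 0.56 and 2.22 ± 0.45), while the list's median there was -0.2. Pdgfra was called lower in tubule (-2.51 ± 0.56). The part of these markers in the Slc25a24 difference was not tested.

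**Figure D2:**
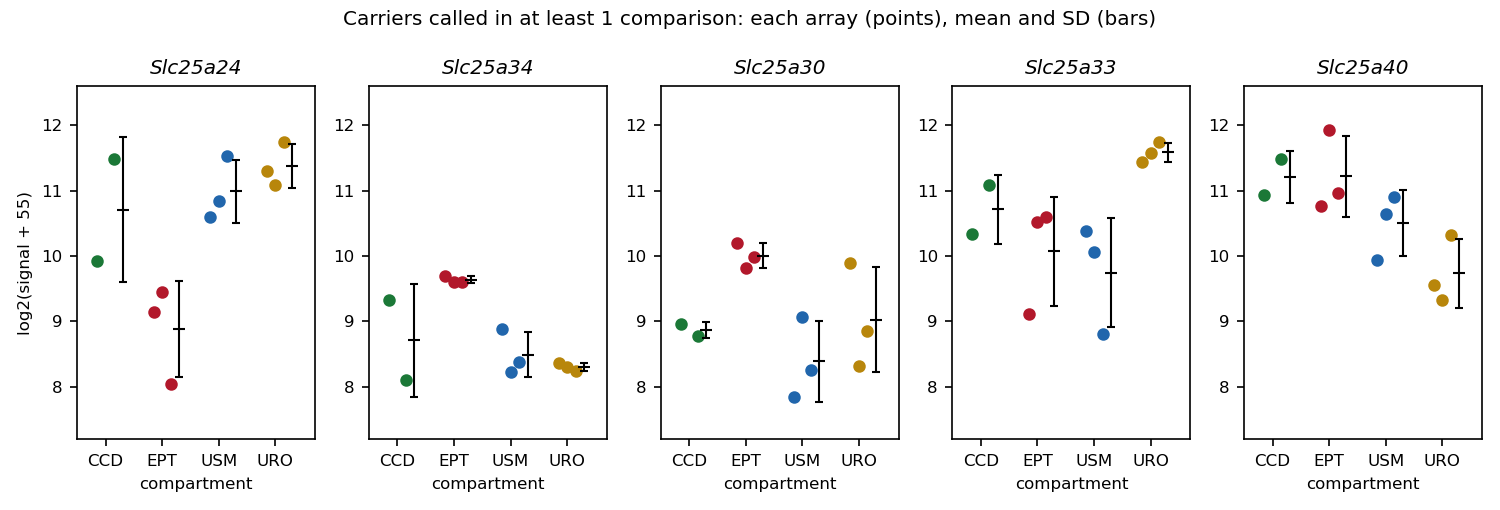
Points are arrays and the bars beside them the mean and SD of each compartment, on log2(signal + 55), for the 5 carriers called in at least 1 comparison. The EPT points of Slc25a24 (8.05 to 9.45) lie below all others, those of Slc25a34 (9.61 to 9.70) above all others, and the EPT points of Slc25a30 overlap 1 URO point (9.90).

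Slc25a34, a carrier whose substrate is unassigned here, was higher in proximal tubule. Its level was 9.70, 9.61 and 9.61 in tubule. The other arrays gave 9.32 and 8.10 in collecting duct, 8.88, 8.22 and 8.38 in muscle, and 8.37, 8.30 and 8.24 in urothelium. The tubule arrays were above all others, as for 8.47% of genes, and collecting duct replicate 1 came closest. The difference from the rest was 1.14 ± 0.33 (SE, n = 3 against 8, limma adjusted p = 0.0311, 95% interval 0.43 to 1.84). Against urothelium it was 1.33 ± 0.39 (adjusted p = 0.0425; 6.44% of genes called higher), and against muscle 1.14 ± 0.39 (limma adjusted p = 0.0545, not called).

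This call was kept in 13 of 23 alternatives, with differences of 0.89 to 1.64 and adjusted p between 0.0118 and 0.423. Leaving out a single array ended it in 5 cases: collecting duct replicate 2 (0.93, limma adjusted p = 0.0657), tubule replicates 1, 2 and 3 (1.10, 1.15 and 1.15, adjusted p = 0.0951, 0.1 and 0.0802) and muscle replicate 2 (1.09, adjusted p = 0.0513). With label batch as a fixed block it was 1.64 (limma adjusted p = 0.127), and without batch 3 it was 0.99 (adjusted p = 0.423). Inside batches 3 and 4 the tubule arrays were 1.51 and 0.93 higher.

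Slc25a30, a relative of the uncoupling proteins also named kidney mitochondrial carrier protein, was the other carrier called higher in tubule. It stood at 10.20, 9.82 and 9.99 in tubule, 8.96 and 8.78 in collecting duct, 7.85, 9.06 and 8.26 in muscle and 9.90, 8.32 and 8.86 in urothelium. Urothelium replicate 1 fell inside the tubule range, so the groups overlapped. The difference from the rest was 1.24 ± 0.38 (SE, n = 3 against 8, limma adjusted p = 0.0424, 95% interval 0.41 to 2.06). Against muscle it was 1.61 ± 0.46 (limma adjusted p = 0.0238; 12.3% of genes called higher).

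Only 6 of 23 alternatives kept the Slc25a30 call against the rest. Leaving out any of 9 arrays ended it: collecting duct replicate 1 or 2 (1.27 and 1.21), tubule replicate 1, 2 or 3 (1.14, 1.33 and 1.24), muscle replicate 1 or 3 (1.15 and 1.22) and urothelium replicate 2 or 3 (1.12 and 1.21), with limma adjusted p from 0.0528 to 0.136. The batch block gave 0.77 (limma adjusted p = 0.577), the arrays without batch 3 gave 1.41 (adjusted p = 0.434), and tubule was 1.12 and 1.19 higher inside batches 3 and 4. The 4 kept probe sets of the gene also differed, with tubule differences of 1.24 for the brightest and 1.31, -0.16 and 2.12 for the others. Its relative Slc25a14 was not called (-0.44 ± 0.32 in tubule, limma adjusted p = 0.404).

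Ucp3, the uncoupling protein known from skeletal muscle, ranged from 8.52 to 9.85 over all arrays and its compartment means spanned only 0.37. Slc25a27, a relative named from brain, was not called from its brightest probe set (0.15 ± 0.48 in tubule, limma adjusted p = 0.872). Ucp1, the uncoupling protein of brown fat, stayed dim on all 11 arrays, at 6.01 to 7.31. The fat markers Cidea, Adipoq and Lep were below the array median on every array of the 4 compartments. Of the 4 fat markers tested, Prdm16 was called higher in collecting duct (2.19 ± 0.43, limma adjusted p = 0.0178) and urothelium (2.33 ± 0.37, limma adjusted p = 0.00541). It was called lower in tubule (-2.39 ± 0.37) and muscle (-2.13 ± 0.37), and Cebpa was called lower in muscle (-1.83 ± 0.5).

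Slc25a33, a pyrimidine nucleotide carrier, was called only between muscle and urothelium. It reached 11.44, 11.57 and 11.74 in urothelium, above every other array, as for 2.17% of all genes. Muscle had 10.38, 10.06 and 8.80, tubule 9.11, 10.52 and 10.59, and collecting duct 10.34 and 11.09. Muscle was 1.84 ± 0.51 below urothelium (SE, n = 3 against 3, limma adjusted p = 0.0413), a pair in which 2.93% of genes were called higher and 5.03% lower in muscle. Urothelium against the rest was 1.40 ± 0.42 higher without passing (adjusted p = 0.11). Muscle and urothelium share batches 1 and 2: muscle was 2.86 lower in batch 1 and 1.06 lower in batch 2, and the fixed block kept the call (-2.09, limma adjusted p = 0.0411).

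The Slc25a33 call held in 11 of 24 alternatives. It was lost without either collecting duct array (-1.84, limma adjusted p = 0.0505 each), tubule replicate 2 (-1.84, adjusted p = 0.0526), muscle replicate 2 or 3 (-1.99 and -1.36, adjusted p = 0.0695 and 0.166) or any urothelium array (-1.91, -1.84 and -1.76, adjusted p = 0.0824, 0.0969 and 0.0979). Without batch 3 it was -1.84 (limma adjusted p = 0.0563). Slc25a36, the other pyrimidine nucleotide carrier, lay within 0.28 of 0 in each compartment from its brightest probe set.

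Slc25a40, a mitochondrial glutathione carrier, was called only between tubule and urothelium. It was 10.77, 11.92 and 10.96 in tubule and 9.56, 9.32 and 10.32 in urothelium. These did not overlap, a pattern whose share over all genes was not taken for this pair. Collecting duct had 10.93 and 11.49, and muscle 9.94, 10.65 and 10.91. Tubule was 1.48 ± 0.45 above urothelium (SE, n = 3 against 3, limma adjusted p = 0.0488), and urothelium against the rest was -1.24 ± 0.37 (adjusted p = 0.109, not called). Its relative Slc25a39, also a glutathione carrier, was not called in tubule (0.64 ± 0.36, limma adjusted p = 0.258) or urothelium (0.34 ± 0.36, adjusted p = 0.695).

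The Slc25a40 call held in 7 of 24 alternatives. It was lost without either collecting duct array (1.48, limma adjusted p = 0.0565 each), any tubule array (1.70, 1.13 and 1.61, adjusted p = 0.0587, 0.188 and 0.0743), muscle replicate 2 or 3 (1.48, adjusted p = 0.0635 and 0.055) and urothelium replicate 1 or 2 (1.39 and 1.28, adjusted p = 0.129 and 0.137). It was 0.94 with the batch block (limma adjusted p = 0.814) and 1.04 without batch 3 (adjusted p = 0.463). No batch holds arrays of both compartments, so there is no value within a batch for this pair.

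The ADP/ATP carrier Slc25a5 and, from its brightest probe set, the phosphate carrier Slc25a3 showed small differences. Slc25a3, which imports the phosphate for ATP synthesis, ran from 14.65 to 15.60 over all 11 arrays and differed by 0.40 ± 0.30 in tubule (95% interval -0.24 to 1.05, limma adjusted p = 0.404) and by -0.38 ± 0.30 in muscle (-1.02 to 0.27, adjusted p = 0.476). Both intervals end close to a difference of 1. Another kept probe set of Slc25a3, 1440302_at, was dimmer, with a mean of 8.15. It differed by 1.29 in tubule and by -1.59 in collecting duct, and was not called. Slc25a5, the ADP/ATP carrier of proliferating tissues, ran from 13.92 to 14.97, with its highest difference in urothelium (0.44 ± 0.32, limma adjusted p = 0.541). Its 8 kept probe sets gave urothelium differences of 0.30 to 0.48 and muscle differences of -0.57 to -0.11, and none was called. Slc25a31, the ADP/ATP carrier of the germ line, was dim throughout (5.86 to 7.64).

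Slc25a4, the ADP/ATP carrier of heart and skeletal muscle, gave different answers from different probe sets. The brightest, 1434897_a_at, ran from 14.47 to 15.27 and differed by -0.03 ± 0.30 in smooth muscle (limma adjusted p = 0.97). On 1424562_a_at the muscle arrays read 15.55, 14.89 and 15.22, against 13.40 and 13.74 in duct, 13.47, 14.18 and 13.16 in tubule, and 14.50, 13.64 and 14.55 in urothelium. On that probe set, in a pattern whose share over all probe sets was not taken, all muscle arrays were above all others. In a limma fit of 24427 probe sets its muscle difference was 1.42 ± 0.36 (adjusted p = 0.0209) and that of 1455069_x_at was 1.17 ± 0.33 (adjusted p = 0.0377).

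The remaining Slc25a4 probe set, 1424563_at, was dimmer and more spread, with a muscle difference of 0.85 ± 0.65 (limma adjusted p = 0.496). In this fit 4.57% of all probe sets were called higher and 6.35% lower in muscle, and 2 of the 76 member probe sets were called, both of Slc25a4. Markers of striated muscle, where this carrier is abundant, summed to 8866 to 9963 on the muscle arrays, 864 to 10854 in urothelium, 1004 to 2162 in tubule and 694 to 929 in duct. Of those 8 markers, Actn2, Myh3, Tnni1, Myog and Ckmt2 were below the array median on every smooth muscle array. Of the 5 tested, Tnnt2 was called higher in smooth muscle (5.51 ± 0.52, limma adjusted p = 1.42e-05), and the other 4 were not called there. The part of the striated muscle markers in the Slc25a4 difference was not tested. These probe sets were examined after the data were seen.

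**Figure D3:**
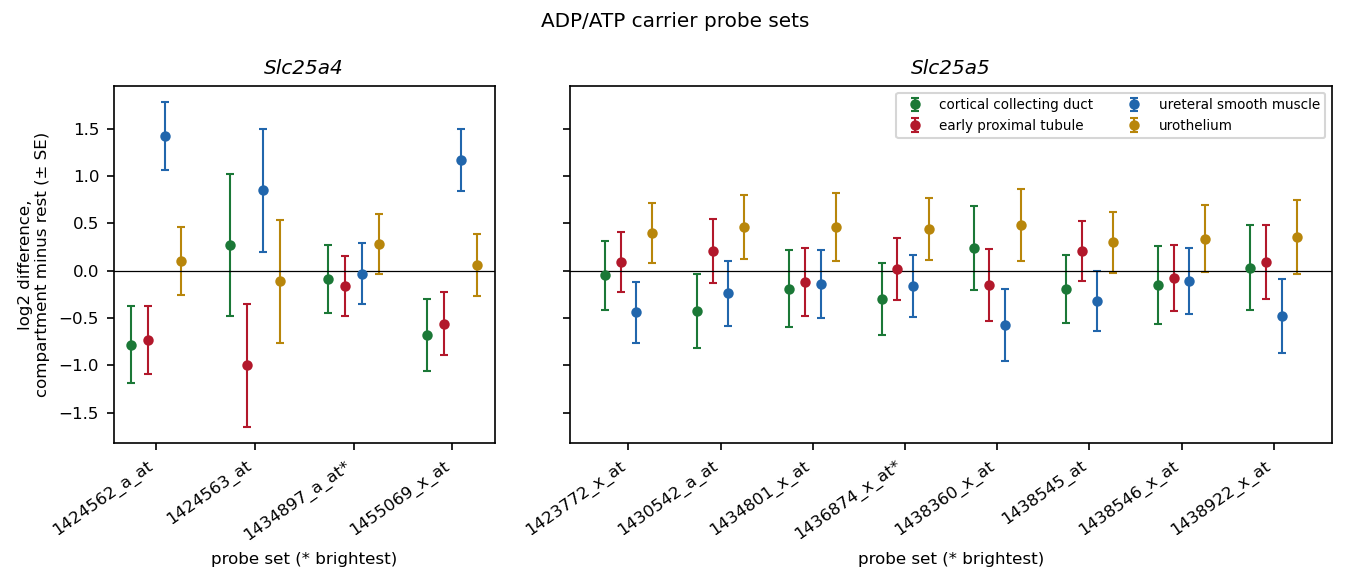
Differences of each compartment from the mean of the rest (log2, ± SE) for every kept probe set of the ADP/ATP carriers Slc25a4 (left) and Slc25a5 (right), the asterisk marking the probe set used for the gene. In muscle, Slc25a4 probe sets range from -0.03 to 1.42, while the Slc25a5 probe sets stay between -0.57 and -0.11.

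The same fit called 4 member probe sets in tubule, where 6.51% of all probe sets were called higher and 4.68% lower. They were those of Slc25a24 and Slc25a34 described above and probe sets of Slc25a27 and Slc25a36 that were not the brightest. For Slc25a27, 1458119_at read 9.79, 10.09 and 10.92 in tubule and 6.05 to 9.65 elsewhere (2.36 ± 0.62, limma adjusted p = 0.0262). The share of all probe sets that separate tubule in this way was not taken. For Slc25a36, 1438520_at read 12.54, 13.34 and 12.75 in tubule and 10.65 to 12.61 elsewhere, with an overlap at muscle replicate 1 (1.31 ± 0.38, limma adjusted p = 0.0401). For both genes the brightest probe set differed by at most 0.15 in tubule. Among 19 members with more than 1 kept probe set, all probe sets lay on the same side of 0 in tubule for 6.

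Carriers of organic acids and of the malate-aspartate shuttle were not called. Slc25a10, the dicarboxylate carrier, was 10.91, 11.47 and 11.41 in tubule, against 10.22, 10.41 and 10.24 in muscle and 10.36 and 10.24 in duct. Urothelium, at 10.78 to 11.10, overlapped tubule, and the tubule difference of 0.75 ± 0.29 did not pass (limma adjusted p = 0.0937). The citrate carrier Slc25a1 differed by -0.82 ± 0.35 in muscle (limma adjusted p = 0.149), and the oxoglutarate carrier Slc25a11 by -0.33 ± 0.47 (adjusted p = 0.723).

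Slc25a12, the calcium-regulated aspartate/glutamate carrier of muscle and brain, had the lowest adjusted p in muscle. It read 9.89, 11.28 and 9.44 there, against 10.77 to 11.75 on the other arrays, so muscle replicate 2 lay among them. The difference was -1.04 ± 0.40 (limma adjusted p = 0.108), and without muscle replicate 2 it was -1.58 and called (adjusted p = 0.0211). Slc25a13, its liver and kidney counterpart, differed by -0.58 ± 0.42 in muscle and 0.24 ± 0.42 in tubule (limma adjusted p = 0.423 and 0.76).

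Among the other amino acid carriers, tubule differences were 0.87 ± 0.42 for the ornithine carrier Slc25a15, 0.77 ± 0.33 for Slc25a44, which takes branched-chain amino acids, and 0.73 ± 0.49 for the glutamate carrier Slc25a22 (limma adjusted p = 0.187, 0.141 and 0.358). The glycine carrier Slc25a38 had 0.67 ± 0.38, and Slc25a18, the other glutamate carrier, and Slc25a29, a carrier of basic amino acids, lay within 0.12 of 0. All 8 measured carriers of this group were below 0 in muscle, from -1.04 to -0.11, and none was called. Slc25a2, the other ornithine carrier, was dim and did not pass the filter. It read 6.81 to 7.13 in urothelium and 7.51 to 8.10 elsewhere, a pattern whose share over all genes was not taken.

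Slc25a20, which brings acylcarnitines in for fatty acid oxidation, read 12.74, 12.88 and 13.15 in muscle, below every other array, as for 5.13% of all genes. Tubule had 13.68, 13.75 and 13.18, duct 13.49 and 13.31, and urothelium 13.68, 14.39 and 13.56. The muscle difference of -0.68 ± 0.31 did not pass (limma adjusted p = 0.175). Tubule differed by 0.14 ± 0.31 (95% interval -0.53 to 0.81), an interval that does not reach a doubling. These values rest on the brightest probe set of the gene. On another kept probe set, 1423109_s_at, muscle read 11.26, 10.57 and 11.77, among the other arrays (10.48 to 12.35). There the muscle difference was -0.18 and the tubule difference -0.53.

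The mitoferrins, which import iron for heme and iron-sulfur clusters, were on average higher in tubule without passing. Slc25a28 differed there by 0.96 ± 0.39 and Slc25a37, the mitoferrin of red cell precursors, by 0.93 ± 0.40 (limma adjusted p = 0.116 and 0.134). Slc25a37 read 11.86, 11.57 and 12.46 in tubule and 10.40 to 12.13 elsewhere, the last value in urothelium replicate 1. Erythroid markers summed to 3039 to 19841 in tubule, 10403 to 10593 in duct, 9140 to 13723 in muscle and 13868 to 21862 in urothelium. Of the 5 erythroid markers tested, Klf1, a red cell transcription factor, was called higher in tubule (1.88 ± 0.42, limma adjusted p = 0.00747) and lower in urothelium (-1.98 ± 0.42, adjusted p = 0.0264), and the other 4 were called in no compartment. Klf1 read 8.67, 9.47 and 10.28 in tubule and 6.17 to 8.53 elsewhere. In tubule Hbb-y, Alas2, Slc4a1 and Gata1 differed by -0.75 to -0.32. The part of these markers in the mitoferrin values was not tested.

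Of the cofactor carriers, Slc25a17, a carrier of the peroxisomal membrane, had the largest tubule difference (1.05 ± 0.40, limma adjusted p = 0.0975), which came mainly from replicate 3 at 11.33 against 9.84 and 9.97. Slc25a26, which imports S-adenosylmethionine, had 0.78 ± 0.44 and also its highest value, 12.17, on that array. The folate carrier Slc25a32, the NAD carrier Slc25a51 and the coenzyme A carrier Slc25a42 differed in tubule by -0.48 ± 0.53, -0.18 ± 0.36 and 0.56 ± 0.46 (limma adjusted p = 0.594, 0.8 and 0.456). Slc25a32 read 9.40 on urothelium replicate 1 and 11.39 and 11.88 on the others of that compartment. Slc25a16, also linked to coenzyme A, and Slc25a48 did not pass the filter (6.84 to 8.80 and 6.37 to 8.60).

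Slc25a46, an outer membrane protein that shapes mitochondria, had the largest collecting duct difference (0.88 ± 0.50, limma adjusted p = 0.492), resting on 14.97 in replicate 2 against 13.48 in replicate 1. Slc25a35, of unassigned substrate, was at 8.75 and 8.70 in duct, above all other arrays (7.82 to 8.63), as for 2.73% of all genes. Its difference was not called. Slc25a45, Slc25a47 and Slc25a53 differed in tubule by 0.29 ± 0.45, 0.61 ± 0.41 and 0.00 ± 0.40 (limma adjusted p = 0.727, 0.356 and 0.998). Slc25a54 was dim (6.46 to 8.30).

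**Figure D4:**
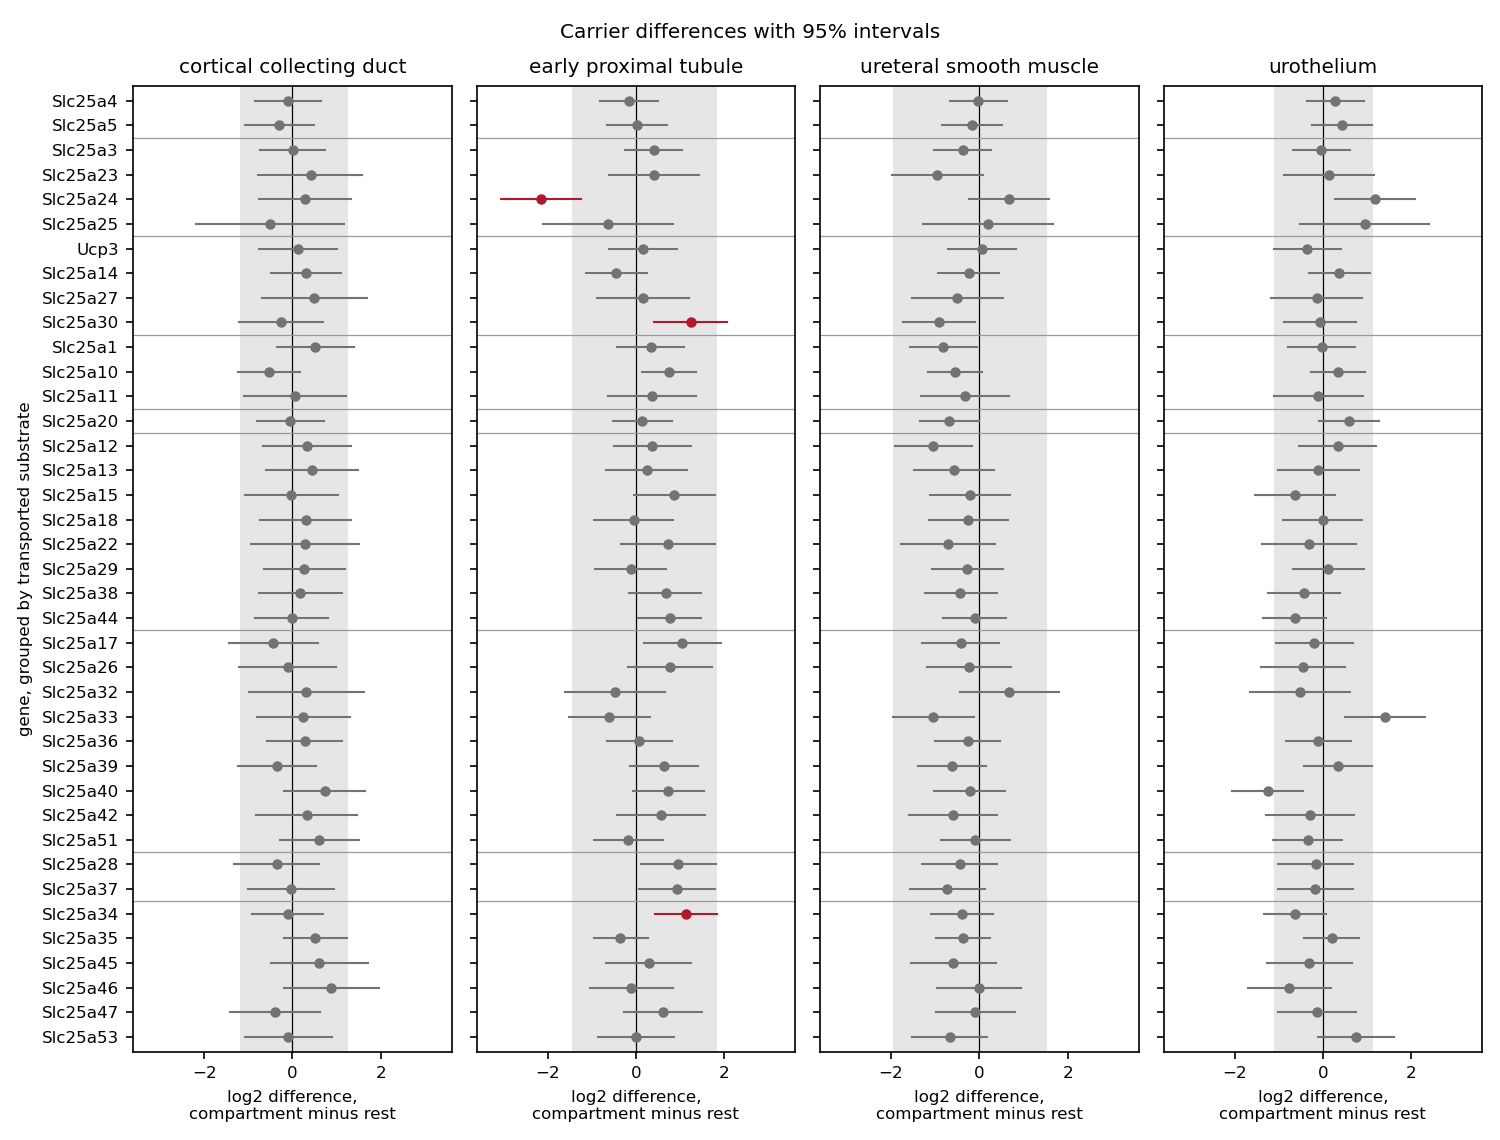
Points are each carrier's log2 difference between a compartment and the mean of the other 3, lines are 95% intervals, coloured points are called, and the grey band spans the 5th to 95th percentile of all 13614 genes (in tubule -1.43 to 1.81). Slc25a24 at -2.14 in tubule is the only called point outside a band, and most muscle points lie left of 0.

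Genes that work beside the carriers were taken from 8 lists, 106 distinct genes measured. In tubule 14 of them (13.2%) were called higher and 4 (3.77%) lower, where the background was 9.53% and 6.41%. In muscle 1 (0.943%) was called higher and 13 (12.3%) lower, where it was 6.05% and 9.12%. With the batch block 4 were higher and 0 lower in tubule, where 2.98% of all genes were called. In muscle 1 was then higher and 4 lower, where 6.99% of all genes were called. The fit without batch 3 left 1 tubule array, and its counts are not given. Collecting duct had 0 calls and urothelium 1. The lists were chosen with earlier results of these data known.

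Other transporters of mitochondrial membranes had 2 of 17 genes called higher in tubule, both sideroflexins, a family outside Slc25 that includes a mitochondrial serine carrier, Sfxn1. Sfxn2 read 13.19, 13.51 and 13.22 in tubule and 9.92 to 10.50 on all other arrays. The difference was 3.16 ± 0.28 (SE, n = 3 against 8, limma adjusted p = 1.12e-05), called in 23 of 23 alternatives. Sfxn1 read 13.50, 13.33 and 14.05 in tubule and 10.85 to 12.63 elsewhere (1.73 ± 0.33, limma adjusted p = 0.00308, kept in 22 of 23). The highest called tubule difference of an Slc25 carrier at the gene level was the 1.24 of Slc25a30.

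Among 14 enzymes listed for the malate-aspartate, citrate and glycerol-phosphate shuttles, 3 were higher and 1 lower in tubule. Gpd1, the cytosolic glycerol-phosphate dehydrogenase, read 11.34, 12.10 and 11.59 in tubule, 6.59 to 6.97 in muscle and 7.30 to 8.81 in duct and urothelium (3.96 ± 0.35 in tubule, limma adjusted p = 1.12e-05, kept in 23 of 23). Idh1 and Me3 rose by 1.57 and 1.33 and Me2, a malic enzyme, fell by 1.65. In muscle Gpd1, Idh1 and Mdh1 fell by 2.57, 1.33 and 1.28.

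Of 9 carnitine shuttle genes, Slc22a5, the plasma membrane carnitine transporter, rose by 1.81 ± 0.34 in tubule (limma adjusted p = 0.00269). It read 13.38, 14.08 and 14.15 there, against 11.03 to 12.73 elsewhere. The inner membrane carrier Slc25a20 differed in tubule by 0.14 from its brightest probe set. Of 12 iron and heme genes, Ppox rose by 1.30 in tubule and the transferrin receptor Tfrc fell by 2.76 ± 0.42 in muscle (limma adjusted p = 0.000515).

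Of 13 matrix enzymes of amino acid metabolism, Gatm, Gldc, Prodh and Glud1 rose in tubule by 3.02, 2.04, 1.55 and 1.24, and Oat and Aldh18a1 fell by 1.65 and 1.39. The calls of Glud1 and Aldh18a1 were kept in only 14 and 11 of 23 alternatives. Oat, the ornithine aminotransferase, rose by 2.02 ± 0.39 in muscle (limma adjusted p = 0.00283), while the ornithine carrier Slc25a15 differed there by -0.22 ± 0.42 (adjusted p = 0.81). Gldc, of the glycine cleavage system, read 6.15 to 6.42 in muscle and 9.21 to 11.71 elsewhere, a difference of -4.30 ± 0.47 (limma adjusted p = 4.82e-05), while the glycine carrier Slc25a38 differed there by -0.43 ± 0.38 (adjusted p = 0.532).

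The lists of import machinery and of general mitochondrial content had no calls. Of 14 genes of mitochondrial protein import and 17 of general mitochondrial content, 0 were called in any compartment. Of all genes, 9.53% were called higher and 6.41% lower in tubule, and 6.05% and 9.12% in muscle. In duct these shares were 1.42% and 0.624%, and in urothelium 1.65% and 0.713%. The medians of the import and content lists were -0.15 and -0.14 in tubule and 0.17 and 0.04 in muscle, against 0.33 and -0.38 for the carriers. Whether these transcripts follow the amount of mitochondria was not tested.

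Of 13 regulators of energy metabolism, 3 were called higher and 1 lower in tubule, 3 lower in muscle and 1 higher in urothelium. Esrrg, an estrogen-related receptor, read 14.84, 15.06 and 15.02 in tubule, 12.85 and 13.61 in duct, 9.83 to 10.89 in urothelium and 6.09 to 9.68 in muscle. It rose by 4.41 ± 0.58 in tubule and fell by 4.85 ± 0.58 in muscle (limma adjusted p = 0.000193 and 8.4e-05). Hnf4a rose by 5.39 ± 0.72 and Esrra by 1.71 ± 0.34 in tubule (limma adjusted p = 0.000234 and 0.00373). The Hnf4a values rest on the probe set chosen. Without x, s and a type probe sets Hnf4a differed by 0.67 in tubule and 0.21 in muscle, where it was -2.81 otherwise, and was called in neither (limma adjusted p = 0.222 and 0.769), and with the mean of its probe sets the tubule difference was 3.34. Hnf4a also served as a proximal tubule marker here. Ppargc1a, a coactivator of mitochondrial genes, fell by 2.31 ± 0.60 in muscle (limma adjusted p = 0.0186), and Pparg rose by 4.0 ± 0.62 in urothelium (adjusted p = 0.00443) and fell by 2.66 in tubule.

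**Figure D5:**
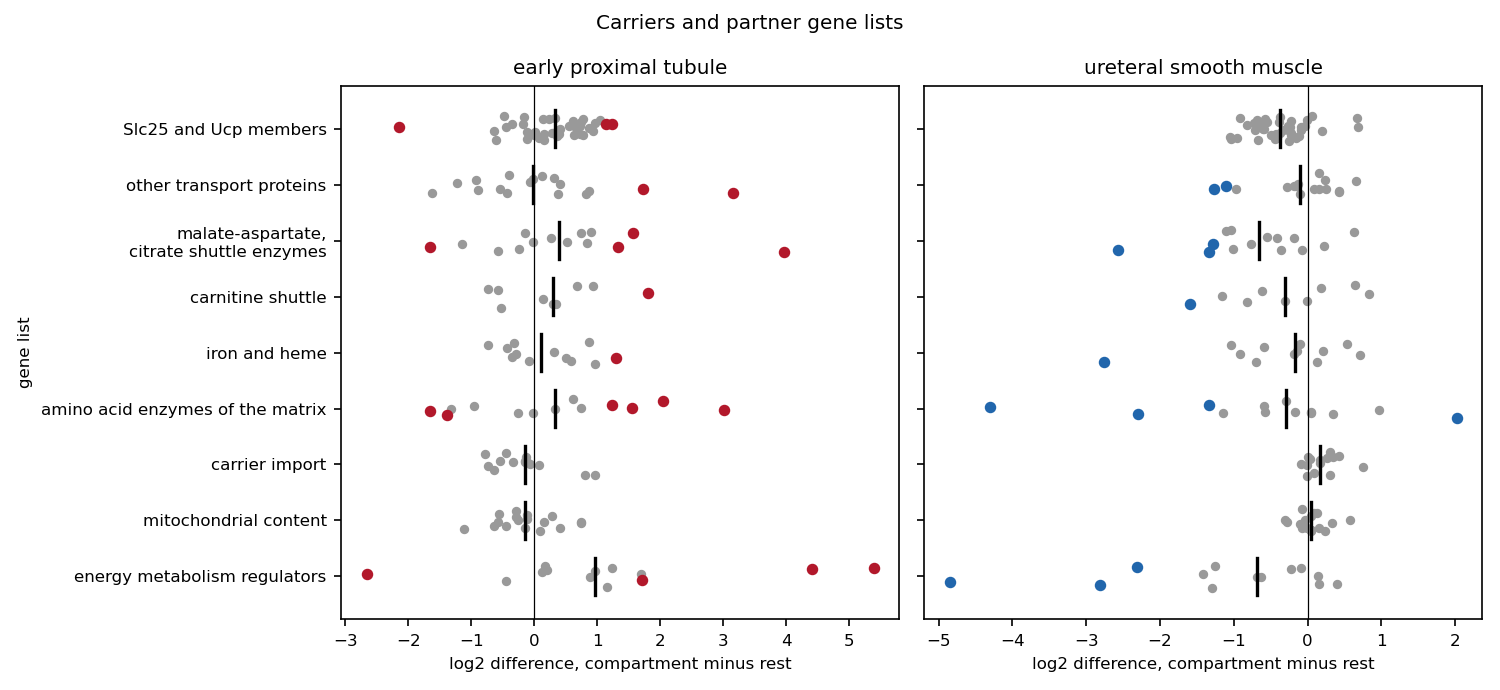
Each point is a gene's log2 difference between tubule (left) or muscle (right) and the mean of the other 3 compartments, coloured where called, and the black bar is the list's median. The carriers spread from -2.14 to 1.24 in tubule, while regulators reach 5.39, for Hnf4a from its brightest probe set, and shuttle enzymes 3.96, for Gpd1. The list labelled carrier import holds genes of mitochondrial protein import in general. The shuttle list also holds glycerol-phosphate enzymes.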

How the data were processed

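Laser-captured compartments were profiled on one-colour Affymetrix arrays. Intensity signals on a linear scale, deposited for 45101 probe sets, had been made with GCOS, per the submitters' processing notes, which state no version. All arrays shared a trimmed mean of 1500, so the authors' scaling was kept, and medians ran from 247 to 401. The number of arrays limits the precision. Values were taken to log2(signal + 55), 55 being about the 20th percentile. Probe sets above their array's median in at least 2 arrays were kept, and a gene was read from its single-symbol probe set with the highest mean. A limma 3.58.1 fit (R 4.3.3) used all 11 arrays (7 residual and 6.38 prior degrees of freedom). The procedure was tested on simulated data. Members are accounted for, except an item that is not reported here; called members are given on every array, and up to 3 uncalled examples a role by moderated t, with further members named for completeness. The members and lists were chosen with earlier results of these data known. Promoters came from RefSeq (GRCm38.p6). Alternatives covered scaling, pseudocounts of 12 and 190, filters, probe set choice, eBayes options, label batch and each array left out; the fits without batch 3 and of each probe set on its own were added after seeing the data. Replicate numbers follow accession order. Plots used Python 3.11.15, pandas 2.3.3 and matplotlib 3.10.9.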

Additional observations from a re-analysis of the deposited data

How the results depend on the processing

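Counts of called carriers depended on the settings, as did the share of all genes called. In tubule that share was 15.9% as reported, 15.8% with quantile normalization, 22.4% with the 75th percentile filter and 16.7% with trended, robust eBayes. It was 14.7% without x, s and a type probe sets and 2.98% with the batch block. In muscle it was 15.2% as reported and 12.1% without muscle replicate 2. In proximal tubule the 3 calls became 1 with quantile normalization, with the 75th percentile filter and with trended, robust eBayes. They became 0 with label batch as a fixed block. Leaving out 1 tubule, muscle or urothelium array gave 1 to 3, where 9.05% to 16.4% of all genes were called. The fit without the 3 arrays of label batch 3 left 1 array each of tubule and duct, so its counts are not given. Without x, s and a type probe sets the calls became 4 (Slc25a36 added). In tubule, 4 genes were also called when each probe set was fitted on its own. In smooth muscle the count of 0 became 1 when each probe set was fitted on its own (Slc25a4), and leaving out 1 array gave 0 to 1 (Slc25a12 without muscle replicate 2). Over the 6 pairs the 5 members called became 2 with quantile normalization, 3 with a pseudocount of 12 and 2 with no filter. They became 3 with the 75th percentile filter and 1 with the batch block. Leaving out 1 tubule, muscle or urothelium array gave 1 to 4, where 20% to 26.3% of all genes were called. Over the pairs the share of all genes called was 27.2% as reported, 27.4% with quantile normalization and 24.5% with a pseudocount of 12. It was 19.1% with no filter, 37.2% with the 75th percentile filter and 11% with the batch block. Collecting duct and urothelium stayed at 0 in all alternatives run. Since the batch block called only 0.022% of all genes in duct and 0% in urothelium, that 0 says little. No called carrier changed sign in any alternative. The cause of these losses was not tested; fewer arrays, and the terms the block adds, leave fewer degrees of freedom. No paired analysis was possible because replicate numbers follow accession order and match no pools; the label batches, which hold arrays of 2 or 3 compartments in differing combinations, were fitted as a block instead. Dim members (7 of 46) cannot be ordered between compartments at this signal, and 2 or 3 pools a compartment leave a median SE of 0.40 to 0.46 on a member's difference from the rest.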
